A study of Mus musculus with 2 samples.

Results

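The genes described here belong to families whose proteins build the junctions between cells, and not all of them are active in the colon. The families are the claudins and other tight junction proteins, the core of the adherens junction with Epcam, the desmosomal cadherins and plakophilins, and the connexins of the gap junction. They were picked out by gene symbol, as the transcript clusters named Cldn, Tjp, Marveld, Dsg, Dsc, Pkp, Gja or Gjb with a number. Added by exact symbol were Ocln, Cgn, F11r, Cdh1, Ctnna1, Ctnnb1 and Epcam. The difference of Cldn4 was already known from the study's printed gene lists when this rule was written. The choice gave 73 genes among 30921 gene symbols on the array, 1 transcript cluster for each, of which 34 were claudins, 9 other tight junction proteins, 4 of the adherens junction group, 13 desmosomal and 13 connexins. All 73 clusters overlapped the gene of the same symbol in the RefSeq annotation of GRCm38.p6.

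Expression was measured on 2 Mouse Gene 2.0 ST arrays, 1 for C3 KO mice, which lack a working gene for complement component 3, and 1 for their WT counterparts. Both kinds of mice had the FVB background, were 16 weeks old, received no treatment according to the sample records, and were bred by crossing heterozygous parents. The study's methods place a charcoal meal for the transit measurement before the tissue was taken. In the records the tissue is distal colon in 1 field and mid colon in the extraction step. They do not say whether an RNA sample came from 1 mouse or several, nor which part of C3 is deleted. The comparison asks which genes differ in the colon of C3 KO mice, which the study used to examine constipation. The values are normalized log2 levels, so a difference of 1 is a 2-fold change, and a gene was called different at 1.5-fold, which is 0.58 on this scale. Since each group has a single array, the spread between mice is unknown, no test could be made, and every difference given here describes these arrays alone.

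A few measurements bear on both samples as a whole. C3 itself had a level of 6.80 in the C3 KO array and 8.15 in the WT array. Xist, which silences the second X chromosome in female cells, stood at 3.81 in the C3 KO array and 10.35 in the WT array, and the Y-linked genes Eif2s3y, Uty, Kdm5d and Ddx3y were 5.65-fold to 29.7-fold higher in C3 KO, so the genotype and whatever these sex-linked genes follow cannot be told apart. All 10 marker genes of pancreatic acinar cells were lower in C3 KO, with a median level of 4.85 in the C3 KO array and 12.6 in the WT array. Markers of gut epithelium were bright in both: of 10 such genes, among them Vil1, Krt8, Krt20, Cdx2 and Epcam, itself a member here, 0 differed by 1.5-fold, and their median level was 10.5 in the C3 KO array and 10.5 in the WT array. Most of them are also expressed in the small intestine, so they do not tell which part of the gut was sampled, and the WT array held the acinar genes beside them. Likewise 0 of 6 smooth muscle genes differed, and of all clusters with a mean level of at least 6, the range of both lists, 3.68% did. In whole tissue, a smaller number of cells and less RNA in each cell cannot be told apart.

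Tight junctions close the gap between neighbouring epithelial cells near their apical end. Claudins are small membrane proteins with 4 spans that form the strands of this seal, and they differ in what they do: some, such as claudin-1 and claudin-3, tighten the seal, while others, such as claudin-2 and claudin-15, line pores that let small cations and water pass between cells. Occludin and the other MARVEL proteins sit in the same strands, and the zonula occludens proteins tie them to actin. Below this belt, E-cadherin with its catenins and the desmosomes give mechanical hold, and connexins form channels that join the interiors of adjacent cells.

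Of the 73 junction genes, 5 were higher in C3 KO by 1.5-fold or more, against 3.66% of all 33793 main transcript clusters, and 2 were lower, against 3.82% of all clusters. These 7 genes are 9.59% of the members, against 7.48% of all clusters in either direction, so as a whole the junction genes passed the threshold about as often as other genes did. The higher genes included Cldn4, Cldn34c1, Cldn34d and Cldn5, and the 2 lower genes were Cldn15 and Cldn9. At 2-fold, Cldn4 was the 1 member that was higher and 0 members were lower, against 0.669% of all clusters higher, 0.678% lower and 1.35% in either direction. The median difference over the members was 0.08, beside 0.00 over all clusters. The share of clusters past 1.5-fold changed with level. It was 13.3% for a mean level from 3 to 4, 3.14% from 7 to 8 and 5.1% in the dimmest band, from 1 to 2. With 1 array per group, noise and true differences cannot be told apart in these shares. Among members with a mean level of at least 6, 2 of 33 were higher, Cldn4 among them, and 1 was lower (Cldn15), which is 9.09%, against 3.68% of the 13352 clusters in that range (2.03% higher and 1.65% lower). A further 26 of these 33 members lay less than 1.25-fold apart between the arrays (78.8%), as did 83.4% of the clusters of that level.

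**Figure D1:**
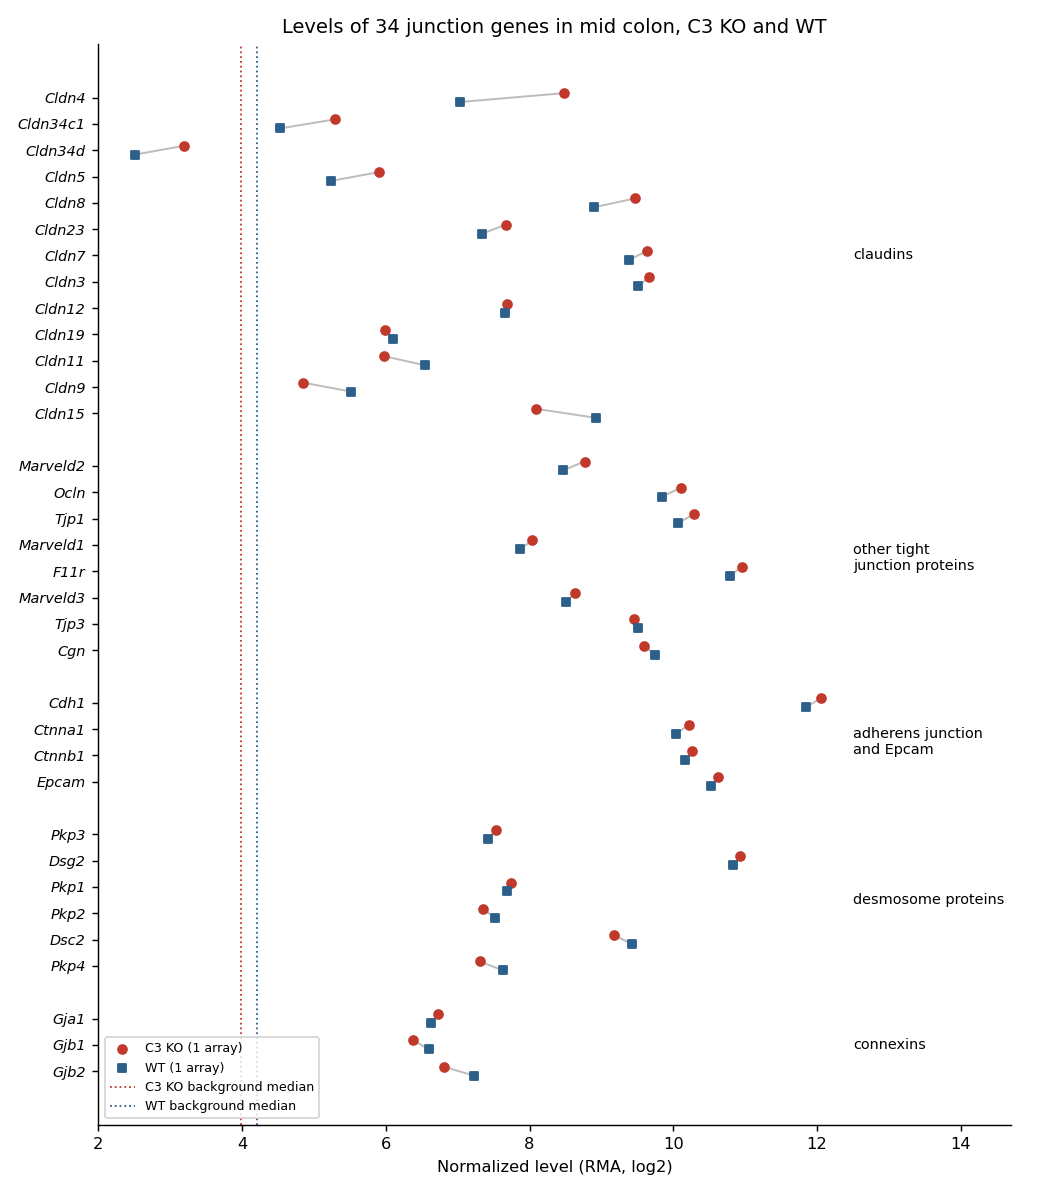
Normalized log2 level (horizontal axis) of 34 junction genes with a mean level of at least 6 or a difference of at least 1.5-fold, in the C3 KO array (red circles) and the WT array (blue squares), grouped by junction class. Dotted lines mark the median of the background probe sets, 3.99 in C3 KO and 4.20 in WT. Cldn4 lies clearly to the right in C3 KO and Cldn15 to the left, while most pairs nearly coincide.

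Cldn4 had the largest difference of all members, and its difference was known before the members were chosen. It encodes claudin-4, a tight junction protein of the gut surface and of kidney tubules that is also, with claudin-3, a receptor for the enterotoxin of Clostridium perfringens. Its level was 8.48 in the C3 KO array and 7.03 in the WT array, a 2.74-fold difference. Counting from the largest increase, it ranked 53 among the 33793 clusters, and by size of difference in either direction it ranked 22 of the 3856 clusters with a mean level from 7 to 8. The gene lies on chromosome 5 of GRCm38, from 134945123 to 134946934 on the minus strand, and its cluster has 18 probes of the type that matches 1 locus.

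Cldn15 went the other way. It encodes claudin-15, which forms cation pores in the intestine and is needed for the luminal sodium that drives nutrient uptake. It stood at 8.09 in the C3 KO array and 8.92 in the WT array, 1.78-fold lower in C3 KO, and ranked 34 of 2388 clusters with a mean level from 8 to 9. Its log2 difference was 2.28 below that of Cldn4, so the ratio of Cldn4 to Cldn15 signal was 4.87-fold higher in C3 KO. The cluster lies on chromosome 5 from 136966616 to 136975858, on the plus strand.

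The promoters of Cldn4 and Cldn15, the claudins with the largest differences in each direction among those with a mean level of at least 6, are shown with those of Cldn3, which neighbours Cldn4 on the chromosome, and of Cldn2, another pore claudin. The stretches are the 250 bases before the transcription start in RefSeq, build GRCm38.p6, read 5′ to 3′ on the strand of the gene. They cover chr5:134946935-134947184 on the minus strand for Cldn4, chr5:134985964-134986213 for Cldn3, chr5:136967619-136967868 for Cldn15 and chrX:139800558-139800807 for Cldn2, all 3 on the plus strand. The Cldn15 cluster on the array begins upstream of its RefSeq start. Capitals mark matches on either strand to any of 5 motifs: the TATA box (TATAAA), the GC box (GGGCGG), the E-box bound by Snail and Zeb repressors (CAGGTG), the AP-1 site (TGANTCA) and the site of grainyhead-like factors (AACCNGTT).
Cldn4: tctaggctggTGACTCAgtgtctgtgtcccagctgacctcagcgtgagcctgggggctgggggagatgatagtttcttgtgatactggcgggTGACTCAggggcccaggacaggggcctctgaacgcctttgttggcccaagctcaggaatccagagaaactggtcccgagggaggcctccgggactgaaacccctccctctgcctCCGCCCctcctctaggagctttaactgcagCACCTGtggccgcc
Cldn3: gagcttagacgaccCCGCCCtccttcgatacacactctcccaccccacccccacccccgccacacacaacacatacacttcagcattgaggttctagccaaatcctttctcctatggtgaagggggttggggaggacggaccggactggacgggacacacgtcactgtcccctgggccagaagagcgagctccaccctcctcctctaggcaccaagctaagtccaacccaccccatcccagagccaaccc
Cldn15: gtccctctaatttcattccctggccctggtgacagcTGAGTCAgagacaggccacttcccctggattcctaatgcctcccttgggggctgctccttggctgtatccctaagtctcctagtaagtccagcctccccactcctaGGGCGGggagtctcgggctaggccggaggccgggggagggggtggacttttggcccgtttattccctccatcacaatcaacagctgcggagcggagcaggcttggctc
Cldn2: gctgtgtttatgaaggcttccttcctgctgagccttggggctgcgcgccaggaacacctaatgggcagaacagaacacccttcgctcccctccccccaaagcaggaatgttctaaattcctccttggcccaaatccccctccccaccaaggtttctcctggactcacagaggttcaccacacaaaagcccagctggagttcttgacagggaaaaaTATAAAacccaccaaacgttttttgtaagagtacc
Cldn4 held an AP-1 match at 240 and another at 158 bases before the start, a GC box at 44 and the E-box, on the opposite strand, at 14. Cldn15, which was lower, also held an AP-1 match, at 214 bases, and a GC box at 108. Cldn3 held a GC box at 236 bases, and Cldn2 a TATA box at 35. No matches overlapped in these 4 stretches. Over 27025 promoters of the same length, 6.85% held the AP-1 letters, 17.1% the E-box, 33.0% the GC box, 13.0% the TATA box and 1.74% the grainyhead-like letters. Among the 46 members with a promoter in the table, 7 (15.2%) held the AP-1 letters, 7 (15.2%) the E-box and 19 (41.3%) the GC box. The TATA box was held by 6 (13.0%) and the grainyhead-like letters by 3 (6.52%). These matches describe letters and not binding.

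The sealing claudins were compared with Cldn4 one at a time. Of the 6 genes of this group, Cldn1, Cldn3, Cldn5, Cldn11, Cldn14 and Cldn18, 1 was higher (Cldn5), against 3.66% of all clusters, 0 were lower, and the median difference was 0.08. With a mean level of at least 6, where Cldn3 and Cldn11 alone remain, 0 passed and the median turned to -0.21. Cldn3, which lies next to Cldn4 and shares its role as enterotoxin receptor, had 9.66 in the C3 KO array and 9.51 in the WT array, a 1.11-fold difference. Cldn5, the claudin of blood vessel endothelium, had 5.91 in C3 KO and 5.23 in WT, a 1.60-fold difference at a level where 7.31% of clusters passed the threshold. Among 6 endothelial markers, 0 were higher and 1 was lower, Kdr, at 7.21 in C3 KO and 7.81 in WT. Tie1 and Cdh5 lay on the C3 KO side by 1.35-fold and 1.30-fold, Pecam1 by 1.04-fold, and the median difference of the 6 was 0.01. Their part in the difference of Cldn5 was not tested. Cldn11, known from myelin and testis, had 5.98 in C3 KO and 6.54 in WT, 1.48-fold lower and just short of the threshold. For Cldn1, Cldn14 and Cldn18 the differences were 0.15, 0.01 and -0.44, with levels from 4.30 to 5.53 in C3 KO and from 4.73 to 5.41 in WT. Set against the median of the sealing group, the difference of Cldn4 was 1.38 larger on the log2 scale.

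The pore claudins differed from each other. Besides Cldn15, the group holds Cldn2, Cldn10 and Cldn17, and its median difference was -0.23. Cldn2, the cation and water pore of leaky epithelia, had 5.80 in the C3 KO array and 5.79 in the WT array. Cldn10 had 4.97 in C3 KO and 5.43 in WT, 1.38-fold lower, and Cldn17, an anion pore, had 4.35 in C3 KO and 4.08 in WT, the WT value lying below the background median. So 1 of 4 pore claudins passed the threshold, against 7.48% of all clusters and 3.06% of those with a mean level from 8 to 9, and Cldn15 was the 1 of them with a mean level of at least 6. Markers of the small intestine, where claudin-15 is abundant, moved partly with it: Fabp2, a fatty acid carrier of enterocytes, had 8.14 in C3 KO and 9.82 in WT, and Defa24, a Paneth cell defensin, 5.24 in C3 KO and 5.89 in WT, while Sis, the sucrase of the small intestine, lay below background in both arrays, Fabp6 had the same value in both, and Slc5a1 had 8.93 in C3 KO and 8.90 in WT. The part of these genes, and of the pancreatic genes named above, in the difference of Cldn15 was not tested. Set against the median of the pore group, the difference of Cldn4 was 1.68 larger.

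Claudins that act as barrier or channel depending on their partners make up the third group: Cldn4 itself, Cldn7, Cldn8, Cldn16 and Cldn19. Cldn8, which joins claudin-4 in kidney tubules and is a barrier claudin of the distal colon, had 9.47 in the C3 KO array and 8.89 in the WT array. That is a 1.49-fold difference, just under the threshold, and 3.26% of clusters with a mean level from 9 to 10 passed it. Cldn7, found along the sides of gut epithelial cells, had 9.63 in C3 KO and 9.39 in WT, a 1.19-fold difference. Cldn19, known from kidney and nerve, had 5.99 in C3 KO and 6.11 in WT, and Cldn16, a kidney claudin, differed by 0.22. Among the 9 claudins with a mean level of at least 6, 6 lay on the C3 KO side and 3 on the WT side, with a median difference of 0.15. Of all 13352 clusters in that range, 7524 lay on the C3 KO side and 5695 on the WT side.

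Of the 19 other claudins, 2 were higher and 1 was lower. Cldn34c1 had 5.29 in the C3 KO array and 4.53 in the WT array, and Cldn34d had 3.19 in C3 KO and 2.51 in WT, both values below background. These belong to a group of 11 X-linked Cldn34 genes, 7 of which lay below the background median in both arrays, and their median difference was 0.26. Cldn9, known from the inner ear, had 4.84 in C3 KO and 5.51 in WT, 1.59-fold lower. Cldn23 had 7.67 in C3 KO and 7.35 in WT, and Cldn12 had 7.69 in C3 KO and 7.66 in WT, neither past the threshold. The remaining 14 lay between 2.19 and 4.58 in C3 KO and between 2.21 and 4.71 in WT, with differences from -0.53 to 0.37. Over all 34 claudins, 4 were higher and 2 lower, or 17.6% against the 7.48% of all clusters. Of these 6, 4 had a mean level below 6. Among the 9 claudins with a mean level of at least 6, 2 passed, Cldn4 and Cldn15 (22.2%), against 3.68% of clusters of that level.

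**Figure D2:**
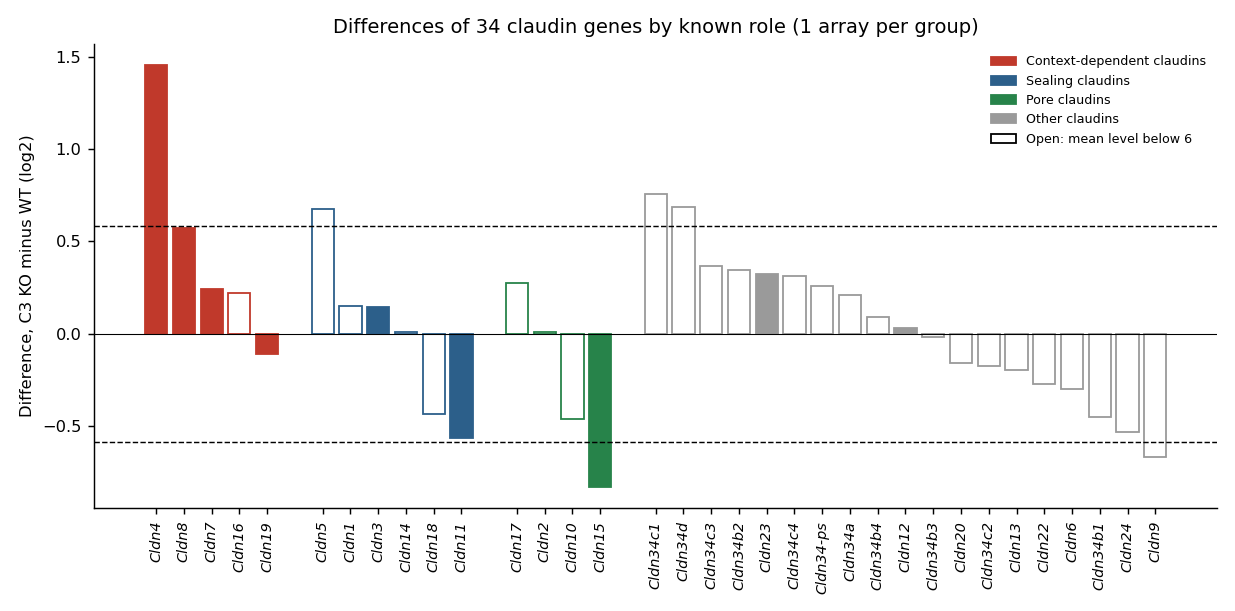
Log2 difference, C3 KO minus WT (vertical axis), of the 34 claudin genes grouped by known role, with 1 bar for each gene, filled where the mean level is at least 6 and open where it is lower. Dashed lines mark 1.5-fold. Cldn4 stands at 1.45, Cldn8 at 0.58 just under the line, and Cldn15 at -0.83.

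The other tight junction proteins differed little. None of the 9 passed the threshold, against 3.68% of clusters with a mean level of at least 6, the range of all 9. On the C3 KO side lay 7 of them, as did 7524 of the 13352 clusters of that range. The median difference was 0.17, beside 0.04 over those clusters. Ocln, occludin, had 10.10 in the C3 KO array and 9.84 in the WT array. Its relative Marveld2, tricellulin, which seals the corners where 3 cells meet, had 8.77 in C3 KO and 8.46 in WT. Marveld3 had 8.63 in C3 KO and 8.51 in WT, and Marveld1 had 8.03 in C3 KO and 7.86 in WT. All 4 members of this MARVEL family thus lay on the C3 KO side by at most 1.23-fold, the side of most clusters with a mean level of at least 6. The scaffold Tjp1, or ZO-1, had 10.29 in C3 KO and 10.07 in WT. Its relative Tjp3, or ZO-3, had 9.45 in C3 KO and 9.51 in WT, so these scaffold genes lay on opposite sides, neither past the threshold. Cgn, cingulin, which links the plaque to myosin, had 9.59 in C3 KO and 9.74 in WT. F11r, the adhesion molecule JAM-A, had 10.95 in C3 KO and 10.79 in WT.

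In the adherens junction group, 0 of 4 genes passed the threshold, against 2.04% of clusters with a mean level of at least 10, the range of all 4. Cdh1, E-cadherin, had 12.05 in the C3 KO array and 11.85 in the WT array. Ctnna1, the catenin that binds actin, had 10.22 in C3 KO and 10.04 in WT, and Ctnnb1, the catenin that also carries Wnt signals, had 10.26 in C3 KO and 10.17 in WT. Epcam, a surface protein of epithelial cells that stabilizes claudin-7, had 10.62 in C3 KO and 10.53 in WT. All 4 lay slightly on the C3 KO side, by 1.15-fold at most. Every one of the 7 members with a mean level of at least 10 did so, with a median of 0.16, but 457 of the 686 clusters of that level were on this side as well, with a median of 0.06.

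Desmosomes link the keratin filaments of adjacent cells. Of 13 genes for their cadherins and plakophilins, 0 passed the threshold, against 7.48% of all clusters, and the median difference was -0.13. Dsg2, the desmoglein of simple epithelia, had 10.93 in the C3 KO array and 10.83 in the WT array, and its partner Dsc2 had 9.17 in C3 KO and 9.43 in WT. So the pair of simple epithelia lay on opposite sides, by 1.07-fold and 1.20-fold. The plakophilins bind the cadherin tails in the plaque. Pkp1 had 7.74 in C3 KO and 7.69 in WT, and Pkp3 had 7.54 in C3 KO and 7.42 in WT. Pkp2 had 7.35 in C3 KO and 7.52 in WT, and Pkp4 had 7.31 in C3 KO and 7.63 in WT. The 7 desmogleins and desmocollins of stratified epithelia, such as Dsg1a, Dsg3 and Dsc3, lay between 3.01 and 4.80 in C3 KO and between 3.21 and 4.80 in WT. Dsc1 had the same value in both arrays, as had 1055 of all clusters.

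The 13 connexins, whose channels pass ions and small molecules between cells, had a median difference of 0.04. The connexins of secretory glands, Gjb1 (connexin 32) and Gjb2 (connexin 26), were at 6.38 and 6.81 in C3 KO and at 6.60 and 7.22 in WT, the largest of these differences being 1.33-fold. The part of the pancreatic acinar genes in them was not tested. Gja1, connexin 43 of muscle and stroma, had 6.72 in C3 KO and 6.64 in WT. None of these 3 passed the threshold, against 3.68% of clusters with a mean level of at least 6. Another 8 connexins, all with a mean level below 6, lay between 3.28 and 5.58 in C3 KO and between 3.37 and 5.47 in WT, with differences from -0.14 to 0.27, so none of them passed it either.

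**Figure D3:**
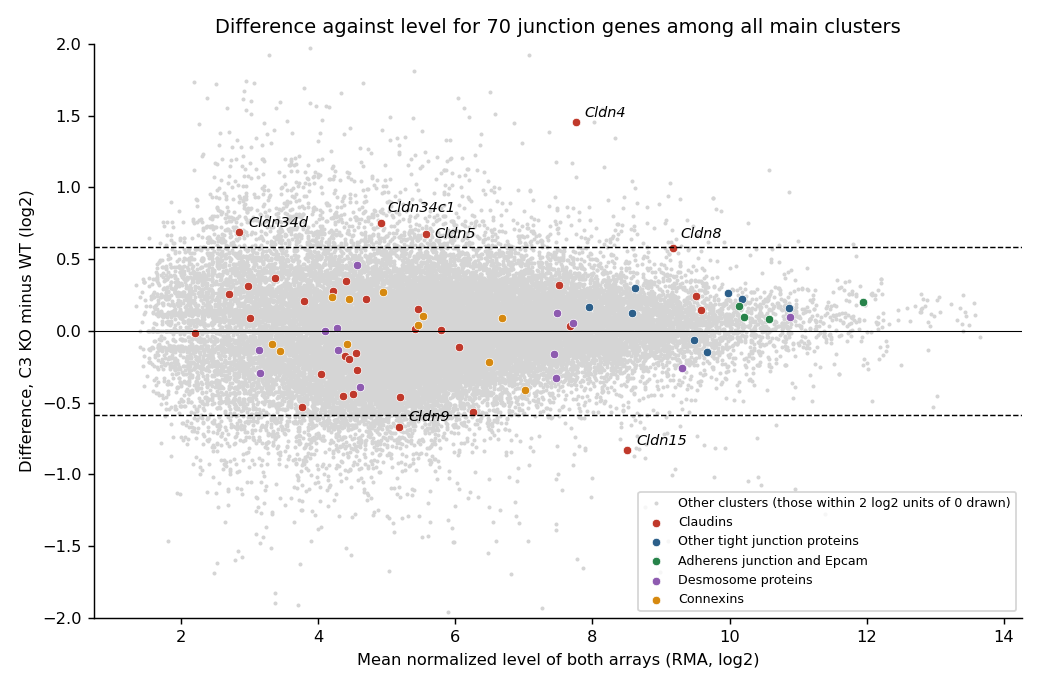
Log2 difference, C3 KO minus WT (vertical axis), against the mean log2 level of both arrays (horizontal axis) for 70 junction genes, coloured by class, and for other main clusters (grey; those more than 2 log2 units from 0 are not drawn). Dashed lines mark 1.5-fold. Cldn4 and Cldn15 stand outside the lines at levels where the grey cloud is narrow, while Cldn5, Cldn9, Cldn34c1 and Cldn34d lie where it is wide.

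Position on the chromosome was a further property the choice of genes did not use. Of the 73 genes, 31 lie in 11 sets of neighbours no more than 100000 bases apart. Cldn4 lies on chromosome 5 between Cldn13, which had 4.36 in the C3 KO array and 4.55 in the WT array, and Cldn3, and neither neighbour passed the threshold. Within this set the differences spanned 1.65 on the log2 scale. Ocln and Marveld2, next to each other on chromosome 13, differed by 0.26 and 0.30, and Cldn8 and Cldn17 on chromosome 16 by 0.58 and 0.28. Cldn6 and Cldn9, with 137 bases between them on chromosome 17, had -0.30 and -0.67. Cldn4 and Cldn9 were each the 1 gene past the threshold in their set.

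**Figure D4:**
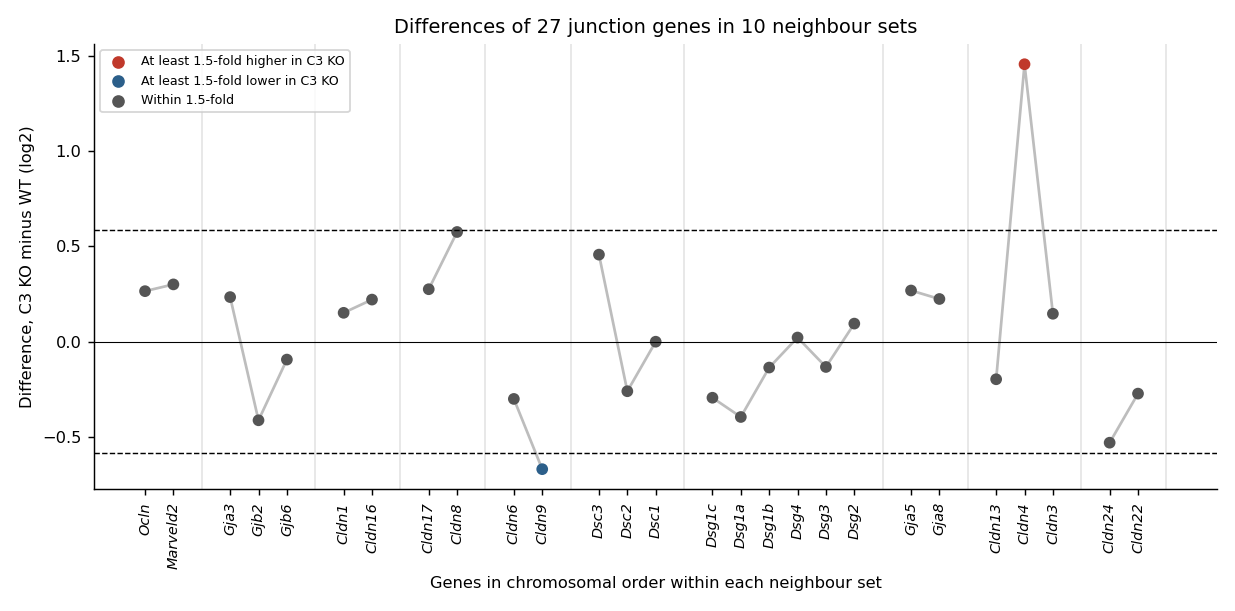
Log2 difference, C3 KO minus WT (vertical axis), of 27 junction genes in 10 sets of chromosomal neighbours, in chromosomal order within each set, with lines joining neighbours. Red and blue points are at least 1.5-fold higher or lower in C3 KO. Cldn4 stands above neighbours that stay within the dashed 1.5-fold lines.

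Other genes of the junctions were looked at as a fixed list of 53, all measured. Only Panx3, a pannexin, passed the threshold, at 4.56 in the C3 KO array and 3.97 in the WT array, where the WT value lay below background. It was higher, and 0 genes of the list were lower. That is 1.89% of the list, against 7.24% of all gene symbols (3.47% higher and 3.77% lower), and the median difference was 0.06. The list is brighter than the array: its median level was 6.98 in C3 KO and 7.18 in WT, against 5.46 and 5.51 over all clusters. Of clusters with a mean level of at least 6, 3.68% passed. In all, 34 of the 53 lay on the C3 KO side and 17 on the WT side. All main clusters split 16376 to 16362, and those with a mean level of at least 6 split 7524 to 5695. The difference farthest to the WT side was that of Cdsn, corneodesmosin, a desmosome protein of the skin, with 4.95 in C3 KO and 5.40 in WT. The 17 scaffold, polarity and contractile genes, such as Pard3, Crb3 and Mylk, had differences from -0.20 to 0.25. Cdsn was named after its value was seen.

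The marker lists are read against the 3.47% of all gene symbols that were higher and the 3.77% that were lower. Of 5 liver genes, 2 were higher, on the same side as Cldn4, and 0 were lower. Alb, serum albumin, had 8.90 in C3 KO and 7.36 in WT, Apoa2, an apolipoprotein, had 7.55 in C3 KO and 6.89 in WT, while Ttr had the same value in both arrays and Serpina1a lay below background in both. Of 8 surface colonocyte genes, 0 were higher and 2 were lower. Car1, a carbonic anhydrase, had 10.40 in C3 KO and 11.51 in WT, and Slc9a3, the sodium-proton exchanger, was 2.11-fold lower in C3 KO. Of 6 goblet cell genes, Spdef, their transcription factor, was lower, at 7.34 in C3 KO and 8.02 in WT. Of 6 crypt and cycling genes, 0 passed the threshold. Of 10 squamous epithelium genes, 0 were higher and 1 was lower, Lor, the cornified envelope protein loricrin, at 4.89 in C3 KO and 5.52 in WT, and their median difference was -0.06. Of 6 nerve and glia genes, 1 was lower, S100b, and none of the duct, stomach, mesothelium, adipocyte or leukocyte genes passed the threshold. The part of any of these genes in the differences of Cldn4 and Cldn15 was not tested.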

How the data were processed

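RNA from the mid colon of C3 KO and WT mice was hybridized to Mouse Gene 2.0 ST arrays, 1 per group. The authors ran RMA at the gene level with Affymetrix Power Tools and deposited log2 levels. RMA gives both arrays the same distribution of probe intensities before they are summarized by gene, so a shift shared by most genes would be largely hidden. The gene-level medians still differed slightly, 5.46 in C3 KO and 5.51 in WT. The deposited annotation also holds a count of probes for each cluster (8 to 39 for the members, median 23) and a cross-hybridization type, which here served as a filter. Tables with the authors' own folds and p-values were not used. The gene table (41345 probe sets) and the series table held identical values.

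The 33793 clusters of category main were analysed. Differences are C3 KO minus WT on the log2 scale, and genes were called at 1.5-fold. Values in both arrays are given for every member with a mean level of at least 6 or past 1.5-fold, except 3 members that are counted but not reported here. The other genes named are mostly members of fixed lists, mainly those past 1.5-fold with a mean level of at least 5, or examples. Panx3 and S100b passed 1.5-fold at lower levels, and the pancreatic acinar genes are given as a set. Genes with several clusters outside the members were averaged. As background, the median of the 23 antigenomic probe sets was taken, 3.99 in C3 KO and 4.20 in WT, and 13 members lay below it in both arrays. The number of arrays limits the precision, and no test was made. The members and lists were chosen with earlier results of these data known. The calling code was run on simulated arrays with known shifts well past the threshold and little noise. That checks the code and not the calls made on these arrays. Python 3.11.15, pandas 2.3.3, numpy 2.4.6, statsmodels 0.14.6 and matplotlib 3.10.9 were used.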

Additional observations from a re-analysis of the deposited data

How the results depend on the processing

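With 1 array per group, an alternative setting shows how the processing moves a value and not how mice vary. Centring each array on its median added 0.05 to every difference and took Cldn8 to 0.62, past 1.5-fold. Centring by loess, the series table, the brightest cluster of each gene and clusters of cross-hybridization type 1 changed no call of a named member. At 2-fold, 1 member was higher and 0 lower, with 0 sealing claudins, 0 pore claudins and 0 of the other junction genes past it. Named members that then lost their call had differences of 0.68 (Cldn5), -0.67 (Cldn9), -0.83 (Cldn15), 0.75 (Cldn34c1) and 0.69 (Cldn34d). With a mean level of at least 6, 2 members were higher and 1 lower, 0 sealing claudins passed, 0 other junction genes were higher, and the medians were -0.19 for connexins, -0.21 for sealing claudins and -0.83 for pore claudins, a group that then held Cldn15 alone. Cldn4 then exceeded the sealing median by 1.66 and the pore median by 2.28. The desmosome median was 0.00 with a mean level of at least 4 and 0.00 with type 1 clusters. With autosomal clusters only, a choice made after seeing the data, 3 members were higher, the claudin median was -0.051, the pore median -0.46, and Cldn4 exceeded the pore median by 1.92. These level, type and autosomal settings keep fewer genes. Dim members are the least certain, since 13 lay below background in both arrays. No paired analysis was possible because each group has 1 array.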
